A study of Mus musculus with 12 samples.

Results

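Genes of the cartilage program were followed in marrow stromal cells and sarcomas of mice: the transcription factor genes Sox9, Sox5 and Sox6, and Acan, Hapln1, Comp, Chad, Matn1, Matn3 and Snorc, which encode proteins of the cartilage matrix or, for Snorc, a membrane proteoglycan of cartilage cells. The 10 genes were taken by symbol from the 24421 rows of the deposited table of stabilized log2 values, and all 10 had a row, Snorc under its RefSeq synonym 3110079O15Rik. RNA was sequenced in bulk from 12 libraries in 3 groups. Mesenchymal stem cells (MSCs) of the bone marrow gave 6 libraries, 3 from mice with p53 (WT) and 3 labelled as p53 knockout (KO). The other 6 came from sarcomas of the bone or marrow in p53 knockout mice, called tumors here. MSCs were sorted as CD45-, Ter119- and CD31- cells that carry the leptin receptor and CD140a, whereas no sort of tumor cells is described, although the labels call them tumor cells. All samples were freshly isolated and no other treatment is labelled. The labels give neither age nor strain, and no allele, promoter or Cre driver for the deletion. Whether libraries of a group stem from different mice is not stated either, so each p-value covers the spread between libraries only, and that spread may be technical.

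As background, Sox9 is the transcription factor that starts and maintains the cartilage cell fate, and Sox5 and Sox6 are related factors that act beside it on cartilage matrix genes. The matrix they turn on is built from type II, IX and XI collagens and from aggrecan, a large proteoglycan tied to hyaluronan by the link protein HAPLN1. COMP, chondroadherin and the matrilins bind collagen fibrils. LepR+ marrow stromal cells are better known for supporting blood formation and for giving rise to bone and fat cells, and Comp and Chad are also expressed in tendon and bone.

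The stabilized log2 scale ends in a floor, taken here as the value of a gene without reads, and the authors' batch adjustment moved this floor apart in 2 batches. Exactly shared low values placed WT_MSC 1, the library labelled KO_MSC 1 and tumors 1 to 3 in batch 1 and the other 7 libraries in batch 2. A value is therefore given here together with its height above the floor of its own batch where that matters. Such a height takes the batch adjustment out again, so heights from different batches are not adjusted for batch. The 2 MSC libraries of batch 1 had 2642 and 3736 genes at the floor, and the other 10 libraries had 9277 to 12398, so weak genes leave the floor more often in those 2. Depth per library is unknown. Trp53, which encodes p53, went against the label in the libraries labelled KO_MSC 1 and 2 (10.49 and 9.76, against 9.96 to 10.61 in WT MSC and 6.96 in the library labelled KO_MSC 3). In the 6 tumors it ranged from 6.79 to 9.16, all below WT MSC, with tumors 3 and 4 at 8.72 and 9.16. So every direction that involves libraries labelled KO MSC rests on these labels. Stromal markers had a mean over 8 genes of 12.57 to 13.89 in WT MSC, 11.65 to 12.36 in the libraries labelled KO MSC and 6.73 to 8.94 in tumors. Markers of blood cells that the sort is meant to remove were present too. The mean of 8 neutrophil markers was 10.74, 9.18 and 7.11 in WT MSC, 12.44, 9.65 and 8.28 in the libraries labelled KO MSC and 5.29 to 7.64 in tumors. The mean of 10 erythroid markers was 8.82 to 11.76 in MSCs and 6.10 to 9.55 in tumors. Their part in the members' values was not tested.

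Comp stood well above the floor in all 6 MSC libraries and Sox6 in 5 of them, and the other members except Sox9 were at or close to the floor in most. For Sox9 no floor could be read, so a library at its floor could not be recognized. In tumors Sox9 was higher in some and Comp lower in most, with a wide spread between tumors, and no member passed limma's threshold of an adjusted p under 0.05 in any of the 3 comparisons. Of the 10 members 8 were tested, since Matn1 and Snorc were not in the 18948 genes of the test. Of these 8, 0 were called between the MSC groups, where 0.00% of all tested genes were called. Tumors against libraries labelled KO MSC also gave 0 of 8, with 4.98% of all genes called (2.70% higher and 2.28% lower). Tumors against WT MSC gave 0 of 8 again, with 21.3% of all genes called (10.4% higher and 10.9% lower). At an unadjusted p under 0.05 there were 0, 2 and 1 members, against 8.64%, 26.5% and 37.2% of all genes, so for no comparison was the members' share above the background. The medians of the 8 differences were -0.06, 0.08 and 0.19, beside -0.01, 0.04 and -0.06 over all tested genes. The number of members above the floor, with Sox9 counted as above it in every library, was 9 of 10 in WT_MSC 1 and 8 in the library labelled KO_MSC 1. It was 2 to 5 in the other MSC libraries, 7, 4 and 7 in tumors 1, 2 and 3, and 5, 3 and 4 in tumors 4, 5 and 6.

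**Figure D1:**
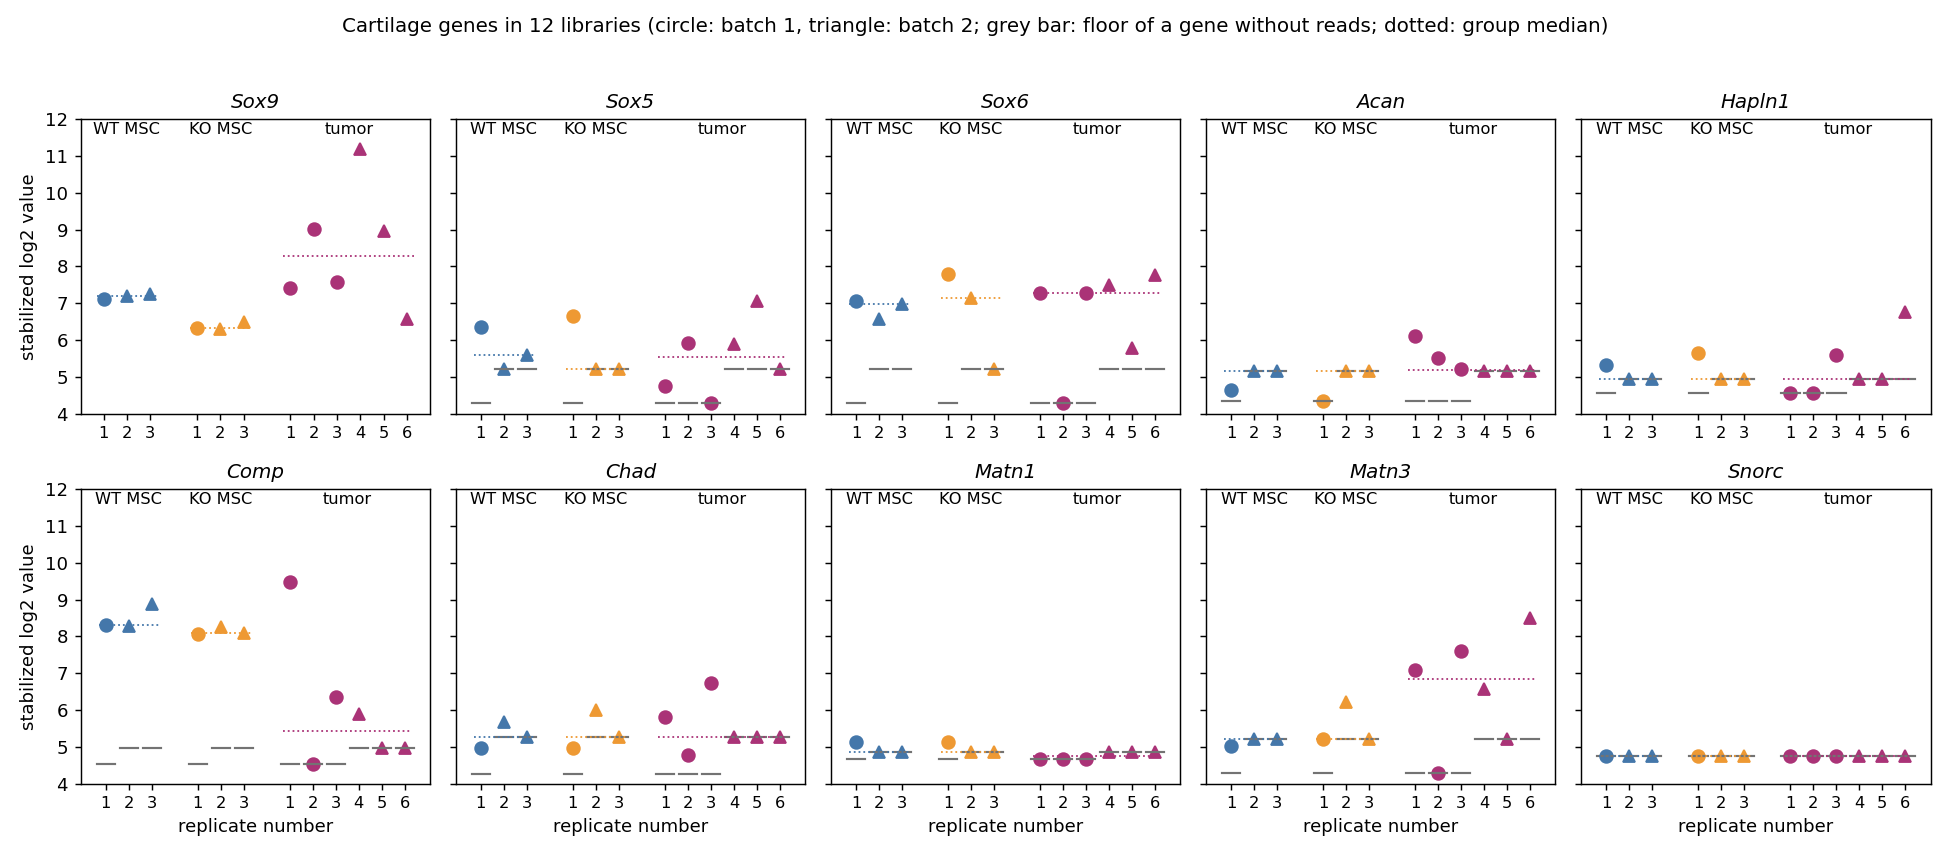
Stabilized log2 value of each of the 10 genes (y axis) in each library (x axis, by group and replicate number), with circles for batch 1, triangles for batch 2, grey bars for the floor of each batch where it could be read and dotted lines for group medians. Sox9 spans 6.58 to 11.18 in tumors against 6.31 to 7.24 in the 6 MSC libraries, and Comp is below every MSC library in 5 of 6 tumors.

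Sox9 (ENSMUSG00000000567.5; GRCm38, the build also called mm10; chromosome 11, 112782224 to 112787760, plus strand) read 7.13, 7.20 and 7.24 for the WT MSC libraries. Those labelled KO MSC read 6.34, 6.31 and 6.49. Tumors 1 to 6 were at 7.43, 9.03, 7.58, 11.18, 8.98 and 6.58. The 3 libraries labelled KO MSC lay below all WT MSC libraries, tumor 4 stood highest, and tumor 6 alone among tumors lay below WT MSC. Group means were 7.19 ± 0.059 (SD, n = 3) in WT MSC, 6.38 ± 0.095 (SD, n = 3) in libraries labelled KO MSC and 8.46 ± 1.64 (SD, n = 6) in tumors.

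The difference of Sox9 between libraries labelled KO MSC and WT MSC was -0.81 ± 0.40 (SE; 95% interval -1.74 to 0.12), lower in 3 of 3 libraries, and did not pass (adjusted p = 0.609, limma). It was -0.79 within batch 1 and -0.82 within batch 2, and -0.41 with quantile scaling. Groups without overlap in this direction occurred in 8.93% of all tested genes, and Sox9 and Comp were the 2 of 8 tested members among them. For Comp this held in the deposited values only. By height above the floor of its batch the library labelled KO_MSC 1 was at 3.53, above WT_MSC 2 at 3.30. Against the libraries labelled KO MSC, tumors were higher by 2.08 ± 0.83 (SE; 95% interval 0.27 to 3.89) in 6 of 6 tumors, which did not pass either (adjusted p = 0.158, limma). This was 1.67 within batch 1 and 2.51 within batch 2. Such a separation upward was seen in 1 of the 8 members (1515 of the 18948 tested genes, 8.0%), and one downward in 0 members (5.39% of all genes). Against WT MSC the difference was 1.27 ± 0.82 (SE; 95% interval -0.54 to 3.09; adjusted p = 0.279, limma), higher in 5 of 6 tumors, and 0.73 without tumor 4. Without overlap were 0 members in either direction there, beside 12.9% of all genes higher and 12.3% lower. In bulk RNA, fewer cells of a type and less RNA per cell cannot be told apart.

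Sox5 (chromosome 6, 143828425 to 144781977, minus strand), which with Sox6 pairs with SOX9 on cartilage gene enhancers, was low throughout. It was at the floor in 5 of the 12 libraries. It was highest in tumor 5 (7.07, which is 1.87 above the floor of batch 2) and in both MSC libraries of batch 1, WT_MSC 1 and labelled KO_MSC 1 (6.35 and 6.66, which are 2.04 and 2.36 above the floor of batch 1). Tumors 1, 2, 3, 4 and 6 had 4.74, 5.92, 4.30, 5.90 and 5.20, of which tumors 3 and 6 were at the floor. The groups overlapped in all 3 comparisons, with a difference of -0.03 ± 0.49 between the MSC groups, and of -0.16 ± 0.56 and -0.19 ± 0.53 between tumors and the KO-labelled and WT MSC groups (SE; adjusted p = 1, 0.883 and 0.82, limma). The last 2 differences were -1.67 and -1.36 within batch 1 and turned to 0.86 and 0.66 within batch 2.

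Sox6 (chromosome 7, 115470872 to 116038796, minus strand) read 7.06, 6.57 and 6.97 for the WT MSC libraries. Of those labelled KO MSC, the first 2 read 7.80 and 7.13 and KO_MSC 3 was at the floor of 5.21. The values of tumors 1 to 6 were 7.28, 4.30, 7.29, 7.50, 5.79 and 7.77, with tumor 2 at the floor. The groups overlapped, with 1 library in each of the KO-labelled and tumor groups at the floor. Tumor 5 was 0.59 above it, less than the 1.36 to 2.76 in WT MSC. The differences were -0.15 ± 0.69, -0.06 ± 0.82 and -0.21 ± 0.70 in the order of comparisons used for Sox5 (SE; adjusted p = 1, 0.973 and 0.846, limma), and the 95% interval of the second reached from -1.85 to 1.73. Without the library labelled KO_MSC 3 the first of them was 0.60 and the second -0.81. Sox6 also acts in red cell precursors, and the mean of 10 erythroid markers in the 6 MSC libraries was lowest, at 8.82, in that library and 8.93 to 11.76 in the other 5. In tumor 2 it was 7.70 and in the other tumors 6.10 to 9.55. The library labelled KO_MSC 3 also had the most genes at the floor of all 12 libraries (12398), and only 2 of the 10 members above it. The part of red cell precursors, or of such low detection, in the Sox6 values was not tested. Sox5 overlaps 5 genes on the opposite strand and Sox6 overlaps 2, and the library kit does not mark strand, so reads of these genes cannot be told apart from theirs.

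The relatives of these factors stayed low. Sox8, the relative of SOX9 that marks several mesenchymal and glial cells, ranged from 4.67 to 5.56, and Sox13, a relative of SOX5 and SOX6, from 4.91 to 6.12. Sox10, which marks glial cells, was above the floor only in WT_MSC 1 and the library labelled KO_MSC 1. Of the 2 relatives tested, 0 passed in any comparison. A mean over 6 Schwann and glial markers was 5.45 to 6.04 in WT MSC, 5.54 to 5.80 in libraries labelled KO MSC and 4.95 to 5.66 in tumors.

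Comp (ENSMUSG00000031849.9; chromosome 8, 70373558 to 70382066, plus strand) encodes cartilage oligomeric matrix protein, a thrombospondin that bridges collagen fibrils. The WT MSC libraries read 8.32, 8.27 and 8.88, and those labelled KO MSC 8.06, 8.25 and 8.09. The values of tumors 1 to 6 were 9.48, 4.53, 6.35, 5.90, 4.97 and 4.97. All 6 MSC libraries lay close together, 3.11 to 3.91 above the floor of their batch. Tumor 1 was above all of them at 4.95 over the floor, tumors 3 and 4 were at 1.82 and 0.92 over it, and tumors 2, 5 and 6 were at the floor itself.

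Against WT MSC, Comp in tumors differed by -2.46 ± 0.92 (SE; 95% interval -4.48 to -0.44), lower in 5 of 6 tumors, and just missed the threshold (adjusted p = 0.0807, limma). Without tumor 1 the difference was -3.15 and passed (adjusted p = 0.00249, limma), and it passed in batch 2 alone, which holds tumors 4 to 6 (-3.29, adjusted p = 0.0217, limma). Within batch 1 it was -1.53. Against the libraries labelled KO MSC the difference was -2.10 ± 0.91 (SE; 95% interval -4.10 to -0.10; adjusted p = 0.176, limma), and -2.79 without tumor 1, where it passed (adjusted p = 0.0162, limma). Restricted to batch 2, this comparison gave -2.89, which did not pass (adjusted p = 0.0713, limma). Each library was left out in turn in these comparisons with tumors, and tumor 1 was the only one whose absence brought Comp past the threshold. Tumor 1 was also the only tumor above the MSC libraries. In the fits that passed, tumors 5 and 6, and tumor 2 where included, were at the floor, which does not vary within a batch. The small SEs of these fits (0.45, 0.47 and 0.50) therefore come in part from floor values. In KO MSC against WT MSC the difference was -0.36 ± 0.37 (SE; 95% interval -1.22 to 0.50; adjusted p = 0.824, limma). The 2 groups came closest at 8.25 (labelled KO_MSC 2) and 8.27 (WT_MSC 2). Without WT_MSC 3 the difference was -0.16, and with quantile scaling -0.21.

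**Figure D2:**
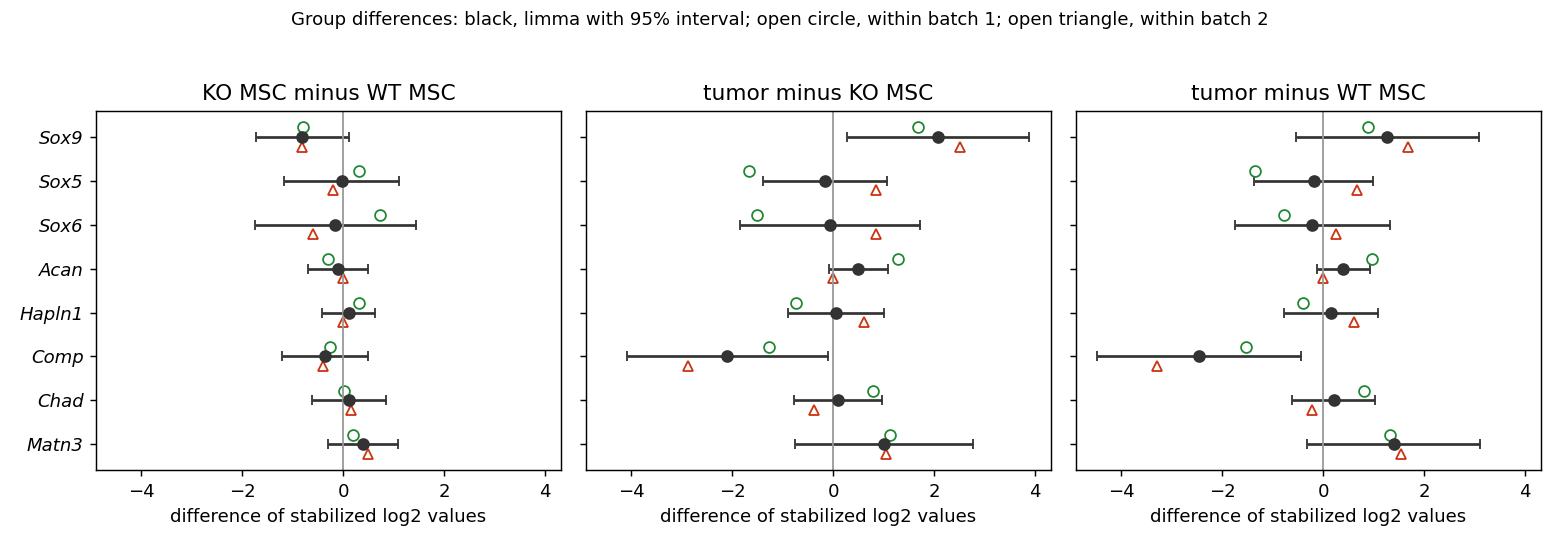
Differences between groups for the 8 tested members on the stabilized log2 scale (x axis), with black points and 95% intervals from limma, open circles within batch 1 and open triangles within batch 2. The intervals of Sox9 in tumor against KO MSC and of Comp in both comparisons with tumors lie to 1 side of 0 without an adjusted p under 0.05. Sox5 and Sox6 have opposite signs in the 2 batches in every comparison, and Chad and Hapln1 in both comparisons with tumors.

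Matn3 (ENSMUSG00000020583.4; chromosome 12, 8947929 to 8972028, plus strand) encodes matrilin-3, an adaptor between collagen fibrils and aggrecan. It was near the floor in MSCs, with 5.01, 5.21 and 5.21 for WT MSC and 5.20, 6.20 and 5.21 for the libraries labelled KO MSC. The values of tumors 1 to 6 were 7.09, 4.29, 7.60, 6.58, 5.21 and 8.50. Tumors 1, 3 and 6 were 2.79, 3.30 and 3.29 above the floor, tumor 4 was 1.37 above it, and tumors 2 and 5 were at it. Tumors were thus higher than every MSC library in 4 of 6. The difference against WT MSC was 1.40 ± 0.78 (SE; 95% interval -0.32 to 3.12; adjusted p = 0.21, limma), and 1.32 and 1.55 within batches 1 and 2. Against the libraries labelled KO MSC it was 1.01 ± 0.80 (SE; adjusted p = 0.449, limma), and 0.62 without tumor 6.

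Chad (chromosome 11, 94565047 to 94569127, plus strand), which encodes chondroadherin, a leucine-rich protein that binds integrins and collagen, was above the floor in 7 libraries. By height above the floor of their batch, tumors 3 and 1 were highest, at 2.48 and 1.55 (values 6.73 and 5.80). The library labelled KO_MSC 2 had a value of 6.0, which is 0.75 above its floor, and WT_MSC 2 was 0.42 above it. Tumors 4, 5 and 6 were at the floor. The groups overlapped, and the differences were 0.11 ± 0.32 between the MSC groups, and 0.10 ± 0.40 and 0.21 ± 0.37 between tumors and the KO-labelled and WT MSC groups (SE; adjusted p = 0.985, 0.904 and 0.707, limma). Both differences of tumors were positive within batch 1, and they were -0.37 and -0.21 within batch 2. Chad overlaps Acsf2 on the opposite strand, and without strand marking their shared reads cannot be told apart.

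Acan (ENSMUSG00000030607.7; chromosome 7, 79053483 to 79115099, plus strand), which encodes aggrecan, the main proteoglycan of cartilage, left the floor only in batch 1. Tumors 1, 2 and 3 were at 6.10, 5.52 and 5.22, which is 1.77, 1.19 and 0.88 above the floor, and WT_MSC 1 was 0.31 above it. The library labelled KO_MSC 1 and all 7 libraries of batch 2 were at the floor, which the batch adjustment placed at 4.34 in batch 1 and 5.17 in batch 2. Tumors differed from WT MSC by 0.40 ± 0.24 and from libraries labelled KO MSC by 0.50 ± 0.27 (SE; adjusted p = 0.239 and 0.251, limma). The first was 0.23 without WT_MSC 1 and 0.26 without tumor 1. The second was 0.23 without the library labelled KO_MSC 1 and 0.14 with quantile scaling. Within batch 1 they were 0.97 and 1.28. In batch 2 Acan had the same value in every library.

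Hapln1 (chromosome 13, 89539796 to 89611652, plus strand), which encodes the link protein between aggrecan and hyaluronan, was above the floor in 4 libraries. It was highest in tumor 6 (6.75, which is 1.82 above the floor), followed by the library labelled KO_MSC 1, tumor 3 and WT_MSC 1 at 1.07, 1.02 and 0.75 above it. Acan and Hapln1 were both above the floor only in WT_MSC 1 and tumor 3. Matn1 (chromosome 4, 130944385 to 130955475, plus strand), which encodes matrilin-1, was above the floor in the 2 MSC libraries of batch 1 by 0.48 and 0.49. Snorc (chromosome 1, 87470271 to 87475482, plus strand) was at 4.75, the common floor, in all 12 libraries. For Hapln1 no difference passed (largest 0.16 ± 0.42, SE, tumor against WT MSC, adjusted p = 0.804, limma). Within batch 1 tumors differed from WT MSC by -0.41 and from the library labelled KO MSC by -0.73, and within batch 2 both differences were 0.61. Hapln1 overlaps the pseudogene Gm8546 on the opposite strand.

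**Figure D3:**
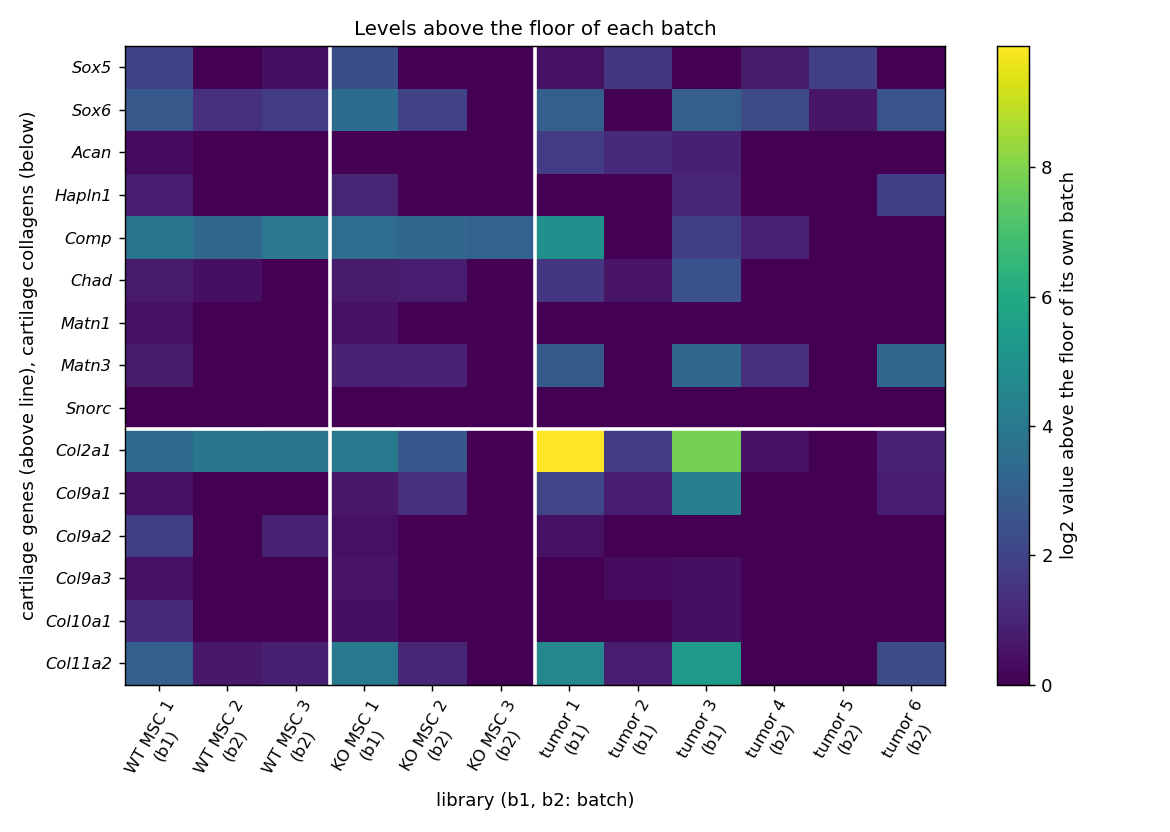
Height of each value above the floor of its own batch (color, log2) for 9 members (rows above the line; Sox9 has no readable floor) and 6 cartilage collagen genes (rows below), by library (columns). Comp is 3.11 to 3.91 in MSC libraries, 4.95 in tumor 1 and 1.82 in tumor 3, and Col2a1 is highest in tumors 1 and 3 at 9.88 and 7.85.

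The upstream sequences of RefSeq (GRCm38.p6) were at hand for 7 of the 10 members, and Sox9, Comp and Snorc were not among them. In the 250 bases before each start, 2 forms of the motif that SOX proteins bind, ACAAAG and ACAATG, were searched on both strands together with the TATA box TATAAA. The SOX forms do not overlap each other in these windows. Of all 32851 such windows 25.2% hold either SOX form (16.5% ACAAAG, 10.7% ACAATG) and 12.4% hold TATAAA. Either SOX form was found in the window of Sox5 and in 5 of the 6 windows of Sox6, and in none of those of Acan, Hapln1, Chad, Matn1 and Matn3. A match is a description of letters and not a binding site, and no match says only that these letters are not in the window. Shown, with matches in capitals, are the Sox6 window with the most matches (4), and those of Chad and Matn3, 2 matrix members that were above the floor in tumors 1 and 3. The values per gene do not tell which start of Sox6 was used.
Sox6 (chr7:115995087-115995336, minus strand): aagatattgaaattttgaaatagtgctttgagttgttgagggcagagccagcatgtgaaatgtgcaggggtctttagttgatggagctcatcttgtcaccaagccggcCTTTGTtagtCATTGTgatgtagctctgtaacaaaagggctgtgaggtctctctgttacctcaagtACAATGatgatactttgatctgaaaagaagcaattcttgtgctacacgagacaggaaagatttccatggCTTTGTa
Chad (chr11:94564797-94565046, plus strand): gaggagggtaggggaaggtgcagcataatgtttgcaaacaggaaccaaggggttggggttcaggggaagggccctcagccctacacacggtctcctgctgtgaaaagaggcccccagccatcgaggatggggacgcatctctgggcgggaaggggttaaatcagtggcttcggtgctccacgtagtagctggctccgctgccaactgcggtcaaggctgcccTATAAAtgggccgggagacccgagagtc
Matn3 (chr12:8947679-8947928, plus strand): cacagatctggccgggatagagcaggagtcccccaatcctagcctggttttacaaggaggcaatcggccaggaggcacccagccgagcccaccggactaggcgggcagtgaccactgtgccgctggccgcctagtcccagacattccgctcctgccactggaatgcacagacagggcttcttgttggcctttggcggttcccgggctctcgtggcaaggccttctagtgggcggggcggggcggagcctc
In Sox6 the SOX letters begin 142, 132, 76 and 7 bases before the start, of which only the match at 76 reads ACAATG on the strand of the gene. In Chad the capitals are the TATAAA from 28 to 23 bases before the start. The window of Matn3 holds none of the motifs.

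Other genes of the pathway were taken from lists. Of 66 pathway and related genes 61 were tested, and 0 passed in KO MSC against WT MSC, 2 rose and 0 fell in tumor against KO MSC, and 3 rose and 7 fell in tumor against WT MSC. Over all tested genes the calls were 0.00%, then 2.70% higher and 2.28% lower, and then 10.4% higher and 10.9% lower. The medians were -0.44, 0.22 and -0.16, beside -0.01, 0.04 and -0.06 over all tested genes.

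Of 8 cartilage collagen genes only Col9a2, a chain of type IX collagen, fell in tumor against WT MSC, by 0.90 ± 0.27 (SE, adjusted p = 0.0356, limma). It was above the floor in 4 libraries, by 1.82 and 0.90 in WT_MSC 1 and 3, by 0.45 in the library labelled KO_MSC 1 and by 0.44 in tumor 1. Col2a1, the chain of type II collagen and the defining collagen of cartilage, was 9.88 and 7.85 above the floor in tumors 1 and 3. It was 3.46, 3.86 and 3.80 above it in WT_MSC 1, 2 and 3, 4.00, 2.73 and 0 in the libraries labelled KO_MSC 1, 2 and 3, and at most 1.77 in the other tumors. The deposited values differ from these heights, since the batch adjustment placed the floor of Col2a1 at 2.97 in batch 1 and 6.53 in batch 2. In them WT_MSC 1 stands at 6.43 beside 10.39 in WT_MSC 2, and tumors 1 and 3 are again highest at 12.85 and 10.82. Heights from different batches are not adjusted for batch, and which scale is nearer to the true levels was not tested. Col9a1 was 2.07 and 4.26 above the floor in tumors 1 and 3, and Col11a2, a chain of type XI collagen, 4.57 and 5.47. Col11a2 was also 4.00 above it in the library labelled KO_MSC 1, 3.03 in WT_MSC 1 and 2.25 in tumor 6, and Col9a1 was 1.33 above it in the library labelled KO_MSC 2. Col11a1, which has no readable floor, was highest in tumor 6 (12.20), then in tumors 1 and 3 (10.41 and 9.66), against 5.68 to 9.03 in MSCs.

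Among 14 growth plate signals and regulators, of which 13 were tested, Mef2c rose in tumor against KO MSC by 3.52 ± 0.78 and against WT MSC by 2.65 ± 0.70 (SE, adjusted p = 0.0276 and 0.0223, limma). Mef2c encodes a transcription factor of hypertrophic cartilage that also acts in muscle and blood cells, and it was higher than all MSC libraries in 5 of 6 tumors. Fgfr3, a receptor that restrains growth of cartilage, and Nkx3-2, a transcription factor of early cartilage, fell in tumor against WT MSC by 2.88 ± 0.67 and 1.52 ± 0.19 (SE, adjusted p = 0.0128 and 0.00118, limma), each lower in 6 of 6 tumors. Nkx3-2 was at the floor in all 6 tumors, and 0.98, 1.96 and 1.83 above it in WT_MSC 1, 2 and 3. Its small SE therefore comes in part from floor values, which do not vary within a batch. Fgfr3 was at the floor in tumors 4 and 5. Pth1r, the parathyroid hormone receptor of bone and growth plate cells, was at 13.37, 11.07 and 11.66 in tumors 1, 3 and 6 and at 6.28, 6.75 and 5.48 in tumors 2, 4 and 5. In WT MSC it was at 10.48 to 11.40 and in libraries labelled KO MSC at 9.41 to 11.59. No difference of Pth1r passed.

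Of 11 genes of glycosaminoglycan synthesis, which build the sugar chains of aggrecan and other proteoglycans, Ugdh rose in both comparisons with tumors, by 1.80 ± 0.42 against KO MSC and 1.36 ± 0.35 against WT MSC (SE, adjusted p = 0.0338 and 0.0194, limma). Chpf and Papss2, which extend chondroitin and supply its sulfate, fell against WT MSC by 2.31 ± 0.63 and 1.27 ± 0.37 (SE, adjusted p = 0.0262 and 0.0322, limma). Of 8 proteases of aggrecan and COMP, Adamts1 and Adamts15 fell against WT MSC by 2.34 ± 0.39 and 1.85 ± 0.29 (SE, adjusted p = 0.00276 and 0.00217, limma), and none passed against libraries labelled KO MSC. Mmp13, the collagenase of bone and hypertrophic cartilage, was at 14.60, 13.38 and 12.07 in tumors 1, 3 and 6 and at 7.29 to 7.62 in the other tumors. It was at 10.56 to 13.05 in WT MSC and 9.71 to 12.50 in libraries labelled KO MSC. Tumor 6 was thus within the range of MSCs, and tumors 2, 4 and 5 were below it. Htra1, another of these proteases, did not share this order, with 11.08, 11.59, 9.97, 13.37, 8.12 and 8.01 in tumors 1 to 6. It was at 11.84 to 12.58 in WT MSC and 9.90 to 10.67 in libraries labelled KO MSC.

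Set side by side, the 6 tumors ordered by Sox9 ran tumor 4, 2, 5, 3, 1 and 6. The 3 tumors highest in Sox9, tumors 4, 2 and 5, had the lowest means of 11 osteoblast markers (8.83, 8.10 and 9.08), and tumors 3, 1 and 6 had the highest (12.34, 13.74 and 12.28). Col1a1 and Spp1 departed from this order, with their highest values in tumor 4 (18.41) and tumor 2 (17.42). Each of the other markers was lower in tumors 4, 2 and 5 than in tumors 3, 1 and 6. Matn3 was highest in tumors 3, 1 and 6. In tumor 4, which had the highest Sox9 of all libraries, Acan, Chad, Hapln1 and Matn1 were at the floor. Comp and Sox5 were 0.92 and 0.70 above it there, Matn3 1.37 and Sox6 2.29. Markers of other cells also differed between tumors. The mean of 10 skeletal muscle markers was 11.62 in tumor 4, 9.35 in tumor 3 and 7.87 in tumor 1, and 5.22 to 6.54 in the others, against 5.25 to 6.10 in MSCs. Such means are of deposited values, whose floors differ by batch, so low means of the 2 batches are not alike. Not at a readable floor were 10 of these markers in tumors 1, 3 and 4, and 7, 6 and 5 in tumors 2, 5 and 6. There were 8, 3 and 2 in WT_MSC 1, 2 and 3, and 8, 5 and 2 in the libraries labelled KO_MSC 1, 2 and 3. The mean of 7 tendon markers was 8.38 in tumor 4, 7.58 in tumor 1 and 7.38 in tumor 3, and at most 6.84 in the others. In WT MSC it was 6.56 to 6.62 and in libraries labelled KO MSC 6.15 to 6.90. These markers did not move together, since 1 rose and 2 fell in tumor against WT MSC, and 0 passed against libraries labelled KO MSC. Mkx was at 4.80 to 6.62 in tumors and 7.27 to 7.29 in WT MSC, and Scx at 5.98 to 8.35 and 4.45 to 5.06. All 8 macrophage markers rose in both comparisons with tumors, with means of 10.68 to 14.34 in tumors and 5.13 to 6.67 in MSCs, highest in tumor 4. All 7 endothelial markers rose against WT MSC and 4 of 7 against libraries labelled KO MSC, with means of 6.99 to 8.89 in tumors and 5.27 to 5.94 in MSCs. Of 8 neutrophil markers 5 fell against libraries labelled KO MSC and 2 against WT MSC, and of 10 erythroid markers 4 and 5 fell. The part of these cells in the Sox9, Comp and Matn3 values was not tested.

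**Figure D4:**
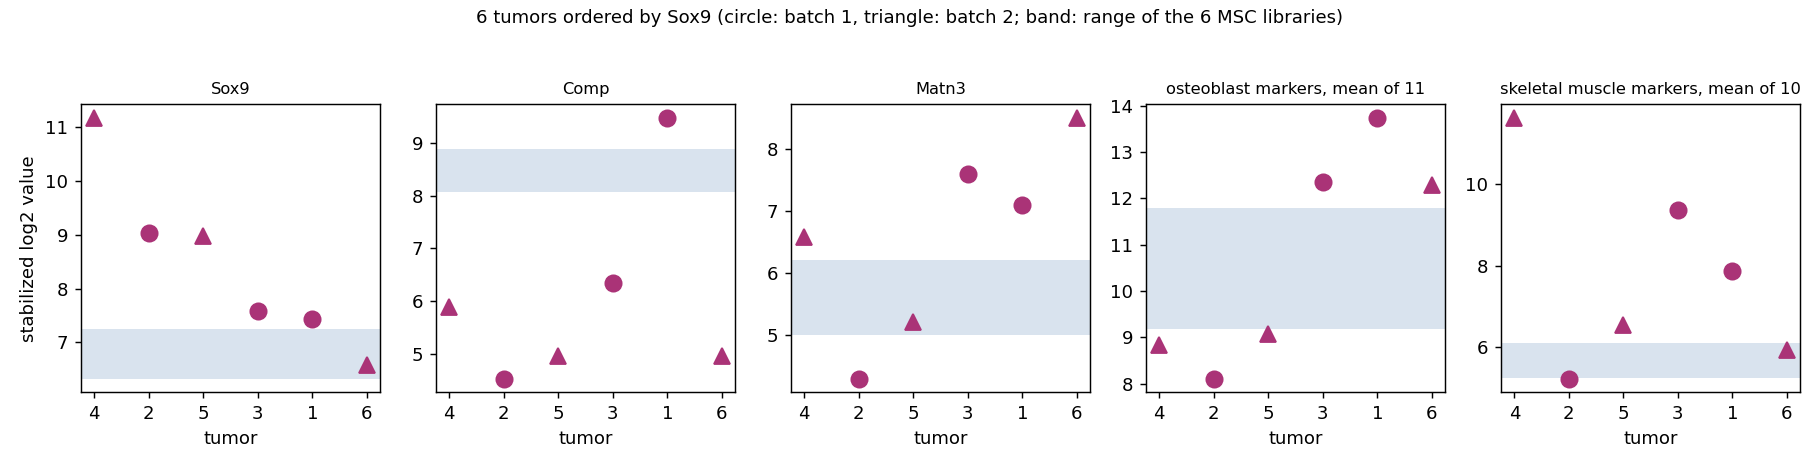
Stabilized log2 values of Sox9, Comp and Matn3 and means of the osteoblast and skeletal muscle markers (y axes, a scale for each panel) in the 6 tumors ordered by Sox9 (x axis), with a band for the range of the 6 MSC libraries. Tumors 4, 2 and 5, on the left, are above the band for Sox9 and below it for the osteoblast mean, and tumor 1 alone is above the band for Comp.

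The genes whose values over the 12 libraries were most like those of Sox9, among 7749 tested genes that reached 8.97 (log2 of 500) in at least 1 library, were Flnc (Pearson's r = 0.984), Stmn2 (0.957), Lyve1 (0.954), Crmp1 (0.946) and Il33 (0.944). For Comp they were Pdcd4 (0.949), Athl1 (0.928), Irf2bp1 (0.922), Naglu (0.917) and Nudcd3 (0.912). For Acan they were Nupr1 (0.958), Ube2z (0.912), Arpp19 (0.898), Enah (0.895) and Map1lc3b (0.895). These values describe the same 12 libraries, which share groups and batches, and for Acan they follow a gene at the floor in 8 libraries.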

How the data were processed

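For 12 mouse samples, low-input cDNA was sheared and ligated without strand marking, per the labels' protocols. TopHat2 2.0.13, Cufflinks 2.2.1, Cuffdiff and mm10 are named in the submitters' processing notes, while the further steps are not given. The values tested are log2 values that the authors deposited after variance stabilization and batch adjustment, as their table is titled. The authors' other deposited table holds a score. In 100% of its 18949 genes it equals the rounded 100-fold of the log2 value over a library's own constant (tolerance 0.01), so no count was recovered and depth is unknown.

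Since the values were already logarithms, limma 3.58.1 in R 4.3.3 (lmFit, eBayes with trend, two-sided) was run on them without a pseudocount, each comparison on its own groups. Benjamini-Hochberg adjustment ran over the 18948 varying genes that are also in the other table. Intervals are 95% intervals of the moderated fit. The authors' batch adjustment uses up degrees of freedom that these fits do not subtract, so p-values can be too small. A floor was read where libraries of 1 batch shared their lowest value exactly, or where the lowest values of both batches mirrored each other around 4.75. In 8352 genes with a floor in both batches they did so in 100% (tolerance 1e-05). The procedure was tested on simulated data.

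Named are the 10 members, Trp53, genes of the pathway lists that passed, and the 5 genes most like Sox9, Comp and Acan. Of the 4 genes per pathway list with the highest value in any library, some are named and others are not. Cell type markers are given as means and counts, with only a few of them named. Members, lists and rules were chosen with earlier results of these data known. Rows named by an older symbol were matched through RefSeq synonyms. Alternatives were no filter, quantile scaling, the other table, a batch term, batch 2 alone, a replicate block, all 12 libraries in 1 fit, and each library left out in turn.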

Additional observations from a re-analysis of the deposited data

Results flagged for a closer look

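Comp in tumor 1 stood apart from the other tumors. Its value was 9.48, and its distance to the next tumor was 0.632 of the range over the 6 tumors, past Dixon's 95% limit for 6 values. No other member that was above the floor in any tumor had such a value. Chance gives one in about 5% of groups of normally distributed values, and 9 members were tested. Comp was at the floor in tumors 2, 5 and 6, so this rate need not hold for it.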

How the results depend on the processing

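Limma called 944 genes in tumor against KO MSC, 229 in batch 2 alone, 34 with the replicate block and 1923 with all 12 libraries in 1 fit, and 113 to 1627 with 1 library left out. Of the latter, leaving out the libraries labelled KO_MSC 1, 2 and 3 gave 113, 396 and 1627, and leaving out tumors 5 and 6 gave 597 and 621. For tumor against WT MSC it called 4033 genes, 775 in batch 2 alone and 1445 with the replicate block, and 1856 to 4737 with 1 library left out, of which 1856, 2339 and 2268 without WT_MSC 1, 2 and 3. In KO MSC against WT MSC it called 0 genes throughout, while 1637 genes had an unadjusted p under 0.05 (494 to 2914 with 1 library left out). Batch 2 alone gave no value for Acan, which is constant there, nor for Hapln1 between the MSC groups. Same-numbered MSC libraries deviated together at 0.238, 0.152 and -0.148, and a tumor with its MSC library at -0.319 to 0.217 (same-numbered MSC libraries also share a batch), so the numbers were not taken to pair the samples. With the replicate block Comp was -1.35 in tumor against KO MSC and -1.71 against WT MSC (adjusted p = 0.485 and 0.263, limma), and Sox9 was 0.82 and Acan 0.62 in tumor against WT MSC.

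Members with small differences changed sign. In KO against WT MSC, quantile scaling gave 0.24 for Sox5, 0.20 for Sox6 and 0.17 for Acan, and the other table gave 0.0016 for Sox5. In batch 2 alone tumor against KO MSC gave 0.86 for Sox5, 0.85 for Sox6 and -0.37 for Chad, and tumor against WT MSC gave 0.66, 0.25 and -0.21. Chad was -0.16 in tumor against KO MSC with quantile scaling. With the replicate block Hapln1 was -0.26 against KO MSC and -0.15 against WT MSC. The causes were not tested. With 1 library left out, KO against WT MSC ranged from -0.51 to 0.29 for Sox5, -0.70 to 0.60 for Sox6, -0.28 to 0.17 for Acan, -0.13 to 0.23 for Hapln1 and -0.18 to 0.33 for Chad. Tumor against KO MSC ranged from -0.47 to 0.32 for Sox5, -0.81 to 0.48 for Sox6, -0.25 to 0.29 for Hapln1 and -0.14 to 0.39 for Chad. Tumor against WT MSC ranged from -0.50 to 0.13, -0.44 to 0.26, -0.14 to 0.29 and -0.031 to 0.40 for the same genes. Sox9, Comp and Matn3 kept their sign in all 3 comparisons under every alternative run, although Matn3 in KO against WT MSC was 0.062 without the library labelled KO_MSC 2.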

Other observations

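Further matrix genes also varied between tumors. Matn2, which encodes a matrilin found outside cartilage, was at 11.31, 10.89 and 9.92 in tumors 4, 5 and 2 and at 7.48 to 7.84 in tumors 1, 3 and 6, against 7.18 to 9.22 in MSCs. Matn3 was lowest in tumors 2 and 5. Thbs4, a thrombospondin of tendon and muscle and a relative of COMP, was at 10.88, 10.19 and 8.31 in tumors 1, 4 and 3 and at 5.09 to 6.39 in the other tumors. Thbs2, another thrombospondin, reached 13.58 in tumor 4. Cilp, which encodes a protein of the intermediate cartilage layer, was at 11.58 in tumor 4, 8.56 in tumor 1 and 7.79 in tumor 3. It was at 7.07, 6.94 and 5.12 in tumors 5, 6 and 2, and at 4.93 to 5.27 in MSCs. None of these 4 passed in any comparison. Hapln4, a relative of the link protein, rose in tumor against WT MSC by 1.31 ± 0.37 (SE, adjusted p = 0.0295, limma), higher in 6 of 6 tumors. Hapln4 was at the floor in WT_MSC 2 and 3 and 0.75 above it in WT_MSC 1. In the 6 tumors it was 0.98 to 2.93 above the floor. The SE of this difference therefore comes in part from floor values, which do not vary within a batch.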
